A study of Mus musculus with 10 samples.

Results

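Heat shock proteins and molecular chaperones were examined in the RNA of meningeal lymphatic endothelial cells (LECs), the cells that line the lymphatic vessels of the membranes around the brain. Members were chosen by gene symbol alone: symbols beginning with Hsp, Dnaja, Dnajb, Dnajc, Hsf or Cct followed by the letters and digits these families use, with Hspg2, Hspbap1 and symbols ending in "ps" left out. Of 55401 rows in the count table, 107 matched and 103 were kept, of which 88 were genes and 15 were pseudogenes or related sequences with numbered names that the rule did not remove. The 10 samples came from C57BL/6 mice aged 3 months, with 5 from naive mice and 5 from mice given sub-chronic variable stress (SCVS), a series of foot shock, tail suspension and restraint alternating over 6 days. The labels do not give the sex or the substrain, which the text of the study gives as female for this experiment and as C57BL/6J for its wild-type mice. Each sample was a pool of the meninges of 3 to 4 mice, so that a replicate is a pool and not an animal. All samples, naive ones included, were digested for 12 min at 37 °C with 45 μM actinomycin D, a blocker of transcription, and were sorted as viable CD45-CD31+podoplanin+ cells. The RNA was amplified before sequencing.

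Chaperones bind unfolded or partly folded proteins and help them reach or regain their shape. HSP70 proteins bind short exposed stretches of a client under the control of DnaJ proteins, which start their ATP cycle, and of HSP110 proteins, which release the spent nucleotide. HSP90 proteins act on clients that are nearly folded, among them many kinases and hormone receptors, while the ring-shaped CCT chaperonin folds actin and tubulin, and the HSP60 and HSP10 ring does the like in mitochondria. Heat or damaged protein frees the transcription factor HSF1, which binds heat shock elements in DNA and switches on the inducible chaperones within minutes. In the endoplasmic reticulum (ER) a separate set led by Hspa5 answers to the unfolded protein response.

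The samples held between 9984743 and 14094155 counts. Levels are given as CPM (counts divided by the total of the sample and scaled to 1000000), and 3 counts, the floor below which a gene was taken as not detected, equalled 0.213 to 0.3 CPM depending on the sample. The defining markers did not hold in every sample. Naive 1 had 0 counts of Prox1, the regulator of lymphatic identity, and 0 of Pdpn, the sorted surface protein, and a summed level of 8 lymphatic markers of 60.8 CPM, where the naive samples reached 2820 CPM and the SCVS samples ran from 460 to 3140 CPM. Naive 5 had 21.5 CPM of Pecam1, which encodes CD31, against 536 to 1120 CPM in the other 9 samples, and the lowest sum of 8 blood endothelial markers, 313 CPM, against 5220 to 9320 CPM in SCVS. Its sum of 6 neural markers was the highest, 3170 CPM, against 165 to 891 CPM in the other naive samples and 73.4 to 1870 CPM in SCVS. Naive 5 also had 1 count of Lyve1, a lymphatic surface receptor, and its lymphatic sum of 185 CPM lay below that of every SCVS sample. It did hold 843 counts of Prox1 (63.2 CPM) and 351 of Pdpn (26.3 CPM). SCVS 5 had 2 counts of Prox1, under the floor, but 97.2 CPM of Lyve1 and 193 CPM of Mmrn1, another lymphatic marker. Its summed level of erythroid markers was 4860 CPM against 4.32 to 125 CPM in the other samples. It also had 40.5 CPM of Ptprc, which encodes the CD45 that the sort selected against. The summed level of leukocyte and myeloid markers, however, was 218 CPM in SCVS 5 and was highest in SCVS 4, at 3780 CPM. That sum was 594 CPM in SCVS 3 and 396 CPM in naive 4. Of these samples, naive 1 and naive 5 were left out together as an alternative, and single-sample values are given beside the genes they move most. In a bulk sample fewer cells of a type and less RNA per cell cannot be told apart.

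Among the 88 genes, 71 passed the filter on low counts (more than 5 counts in at least 3 samples) and were tested, 11 had some reads but too few, and 6 had none: Cct8l1, Dnajb8, Dnajc5g, Hsf2bp, Hspa1l and Hspb3. Of the pseudogene rows 3 were tested and 10 were at 0. Adjusted p values come from edgeR's quasi-likelihood test over all 14815 tested genes, with 0.1 as the threshold. The background was 0% of all tested genes called by that test, 3.1% at an unadjusted p under 0.05, and 0.628% whose groups did not overlap. DESeq2 called 114 of the 13998 genes to which it gave an adjusted p, 40 of them (0.286%) lower in SCVS. Against these, edgeR called 0 of the 71 genes, 1 (Hspa1a) had an unadjusted p under 0.05, and limma called 0. Of the 70 to which it gave an adjusted p, DESeq2 called 1, again Hspa1a, lower in SCVS. No gene among the 71 had groups that did not overlap. Fitted changes were higher in SCVS for 35 genes and lower for 36, with a median log2 fold change of -0.03, the same to 2 decimals as over all tested genes.

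**Figure D1:**
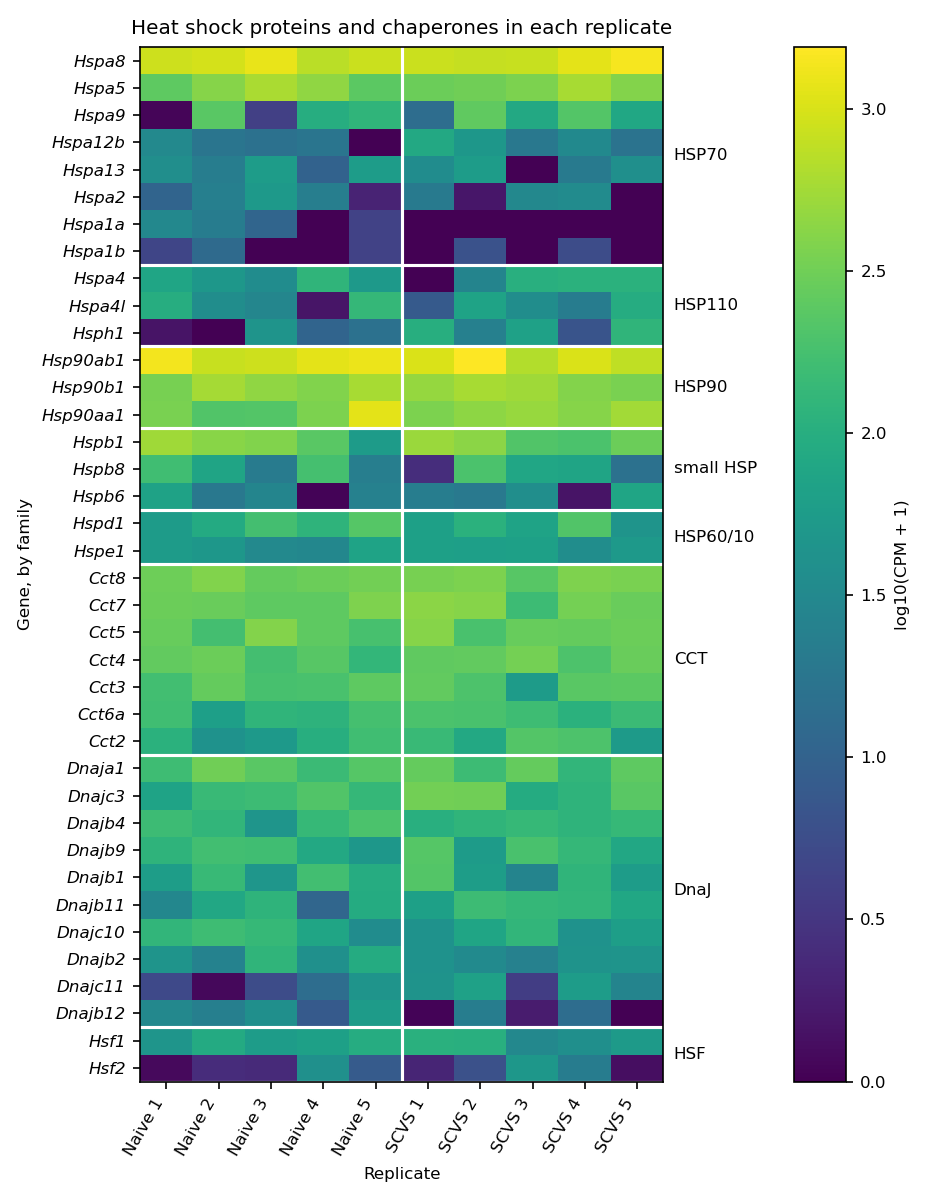
Level of 38 heat shock protein and chaperone genes (rows, by family) in each of the 10 samples (columns, 5 naive then 5 SCVS), coloured by log10(CPM + 1). Hspa8 and Hsp90ab1 keep a similar shade across all samples, Hspa1b, Hspa9, Hsph1 and Hsf2 change from sample to sample within both groups, and Hspa1a does so among the naive samples.

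The constitutive cytosolic chaperones were among the most abundant members, and none of their differences passed the test. Per kilobase of exon, Hsp90ab1 had the highest mean level over all samples (351 CPM per kb), followed by Hspb1 (318), Hspa8 (233), Cct8 (136), Cct7 (125), Hsp90aa1 and Hsp90b1 (116 each) and Hspa5 (112). Hspa8, the housekeeping HSP70 that also uncoats clathrin vesicles, was at 885, 970, 1200, 718 and 857 CPM in naive 1 to 5 and at 871, 809, 825, 1140 and 1390 CPM in SCVS 1 to 5. The 2 ranges overlapped over most of their length, and the log2 fold change was 0.09 with a 95% confidence interval of -0.49 to 0.66. Hsp90ab1, the constitutive HSP90, was at 1350, 839, 874, 1150 and 1260 CPM in naive and 1030, 1550, 666, 1030 and 771 CPM in SCVS samples. Here too the groups overlapped, and the log2 fold change of -0.19 had an interval of -0.77 to 0.39. The summed level of all 88 genes ran from 7340 to 9870 CPM in naive and from 7498 to 9581 CPM in SCVS samples.

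Hspa1a, the strongly inducible HSP70, was the member with the smallest p. Its counts were 309, 267, 140, 0 and 44 in naive 1 to 5 and 0 in all 5 SCVS samples, that is 29.7, 20.9, 10.0, 0 and 3.3 CPM against a group with no read. Naive 4 had no read either, so that the groups overlapped at 0. The naive mean of 12.8 CPM, with an SD of 12.4 over 5 samples, was at least 51.9-fold above what 3 counts in each SCVS sample would give. The quasi-likelihood test of edgeR gave an adjusted p of 0.964, the value before adjustment being 0.00543. The fitted log2 fold change of -10.37 (SE 2.69) depends on the prior count and is no bound. DESeq2 gave an adjusted p of 0.0058, which rose to 0.178 without naive 1 and to 0.0886 without naive 2. With naive 1 and naive 5 both left out Hspa1a no longer passed the filter on low counts. Hspa1a had passed the filter through its naive samples alone, since no SCVS sample held a read. For this gene, picked after its values were seen, permuting the CPM values exactly over the samples gave a two-sided exact permutation p of 0.0476. That p reflects only that the samples with reads were all naive. It is not adjusted for the choice of gene, so no conclusion is drawn from it.

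Hspa1b, the neighbouring copy that encodes nearly the same protein, did not show this pattern. Its counts were 38, 149, 0, 0 and 43 in naive and 0, 65, 0, 59 and 0 in SCVS samples. Both groups thus held samples with reads and samples without, and the log2 fold change was -1.01 (SE 2.30). The transcripts of the 2 genes share 1074 of the 2777 windows of 150 bases in the Hspa1a transcript (38.7%), 150 bases being the read length, and how reads that fit both genes were counted is not given in the sources used here. None of these windows occurred in Hspa8. Summing both genes gave 347, 416, 140, 0 and 87 counts in naive and 0, 65, 0, 59 and 0 in SCVS samples. For this sum the log2 fold change was -3.18 (SE 2.27), with adjusted p values of 1 in edgeR and 1 in DESeq2, so that the DESeq2 call on Hspa1a was lost when the copies were pooled.

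Of the 10 inducible genes with a RefSeq start region, 8 held a 2-unit heat shock element in at least 1 of their windows, and 3 held the longer 3-unit element. Among these 3, the elements of Hspd1 and Hspe1 lie in bases that their windows share. The start regions of Hspa1a and Hspa1b are shown because DESeq2 called the former alone while these regions are nearly the same letter by letter. Sequences are from RefSeq with the build GRCm38.p6, the 250 bases before the annotated start, 5′ to 3′ on the gene's strand. Capitals mark the 2-unit element, searched as GAANNTTC or TTCNNGAA on both strands.
Hspa1a, chr17:34972157-34972406, minus strand: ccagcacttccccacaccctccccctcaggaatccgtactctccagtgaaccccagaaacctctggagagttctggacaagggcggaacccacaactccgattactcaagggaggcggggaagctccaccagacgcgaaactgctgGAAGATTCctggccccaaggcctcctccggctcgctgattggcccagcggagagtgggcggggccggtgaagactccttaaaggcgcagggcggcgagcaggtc
Hspa1b, chr17:34959239-34959488, minus strand: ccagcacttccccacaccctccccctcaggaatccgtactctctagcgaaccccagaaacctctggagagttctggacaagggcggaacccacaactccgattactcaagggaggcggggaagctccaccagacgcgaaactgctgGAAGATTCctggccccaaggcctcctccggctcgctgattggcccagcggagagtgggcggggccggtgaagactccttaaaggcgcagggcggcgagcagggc
The 2 stretches differed at 3 of 250 bases, and both held a 2-unit element beginning 104 bases before the start. In windows of 250 bases before to 50 bases after the start, which RefSeq gives for 71 of the 88 genes, 2-unit elements were found in 25.6% of the members' 90 windows and in 15.1% of all 32851 windows. A 3-unit element (GAANNTTCNNGAA or its reverse complement TTCNNGAANNTTC), which contains the 2-unit element, was found in 6.67% of the members' windows, those of Dnajb6, Hspd1, Hspe1 and Hsph1, and in 0.603% of all windows. The windows of Dnajb6 overlap, as do those of Hsph1, and Hspd1 and Hspe1 share 285 bases of theirs. Elements in shared bases were therefore counted more than once in these percentages. A match to an element describes the letters in the window and not binding.

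Other measures that differed between these samples were set beside Hspa1a. In naive 1 to 5 the immediate early gene Fos was at 1010, 281, 59.9, 4.13 and 30.9 CPM, the same order as Hspa1a, a gene singled out after its values were seen. In SCVS samples Fos was at 39.2, 40.7, 74.4, 56.2 and 280 CPM, with no Hspa1a read in any of them. The 12 immediate early genes as a list did not keep that order throughout, with summed levels of 3020, 1620, 1430, 1020 and 355 CPM in naive and 1060, 2360, 865, 1360 and 1570 CPM in SCVS samples, 5 fitted higher and 7 lower, and a median log2 fold change of -0.20. The smooth muscle actin gene Acta2 was at 1530, 506, 47.9, 14.8 and 20.7 CPM in naive and 84.7, 14.1, 20.3, 1.59 and 15.1 CPM in SCVS samples. Its naive values, like those of Fos, fell in the same order as Hspa1a. Of the mural markers 6 of 6 had fitted changes lower in SCVS, but their summed level, 7650, 1050, 790, 3620 and 5080 CPM in naive and 1100, 5850, 3230, 3020 and 417 CPM in SCVS samples, did not follow Hspa1a by sample. Fibroblast markers were lower in 4 of 5 tested, with sums of 50.9 to 1320 and 18.5 to 1510 CPM. Leukocyte and myeloid markers were higher in SCVS in 5 of 5 tested (0.429 to 396 against 126 to 3780 CPM), and erythroid markers in 5 of 5 (4.32 to 46.7 against 10.9 to 4860 CPM). edgeR called none of these markers and none of 12 immediate early genes, while DESeq2 called Acta2 lower (adjusted p = 0.0600) and Ptprc, the leukocyte gene for CD45, higher (adjusted p = 0.0801). Their part in the values of Hspa1a was not tested.

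Hsph1, an HSP110 protein that exchanges nucleotide on HSP70 and is itself induced by heat, was the gene with the smallest p among those fitted higher. It had 5, 0, 606, 131 and 195 counts in naive and 1394, 288, 812, 75 and 1204 counts in SCVS samples, a mean of 13.6 ± 17.7 against 62.9 ± 48.6 CPM (SD, n = 5 each). Naive 3 exceeded SCVS 2 and SCVS 4, so the groups overlapped. Neither edgeR, DESeq2 nor limma called Hsph1. Like Hspa1a, it was picked after its values were seen. The p values that follow are not adjusted for this choice of gene, so no conclusion is drawn from them. The log2 fold change of 2.17 (SE 1.43) had an interval of -0.95 to 5.29 and p = 0.155 in edgeR's quasi-likelihood test before adjustment, and a two-sided exact permutation test gave p = 0.0714. The RefSeq start region of Hsph1 is shown because it is the gene with the largest fitted rise among the inducible members. From 1 of its 2 RefSeq starts, a 2-unit element begins 33 bases before, marked in capitals. A 3-unit element begins 36 bases after that start, outside the stretch printed. From the other start the same elements begin 54 bases before and 15 bases after. The annotated gene reaches base 149636498, so the marked element lies within it.
Hsph1, chr5:149636337-149636586, minus strand: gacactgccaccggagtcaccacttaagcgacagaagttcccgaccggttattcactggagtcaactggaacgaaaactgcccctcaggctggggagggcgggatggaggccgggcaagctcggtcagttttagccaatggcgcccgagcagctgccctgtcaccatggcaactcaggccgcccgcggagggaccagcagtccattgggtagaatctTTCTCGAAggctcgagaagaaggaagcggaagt
Neither of the other HSP110 genes passed the test. Hspa4 was at 73.2, 47.4, 34.2, 121 and 52.5 CPM in naive and 0, 26.8, 102, 109 and 108 CPM in SCVS samples, with no read in SCVS 1 alone. Its log2 fold change was 0.08 (SE 1.13). Hspa4l ran from 0.516 to 132 CPM in naive and from 7.1 to 93.5 CPM in SCVS samples, and its log2 fold change of -0.44 (SE 1.04) changed sign, to 1.04, without naive 1 and naive 5.

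**Figure D2:**
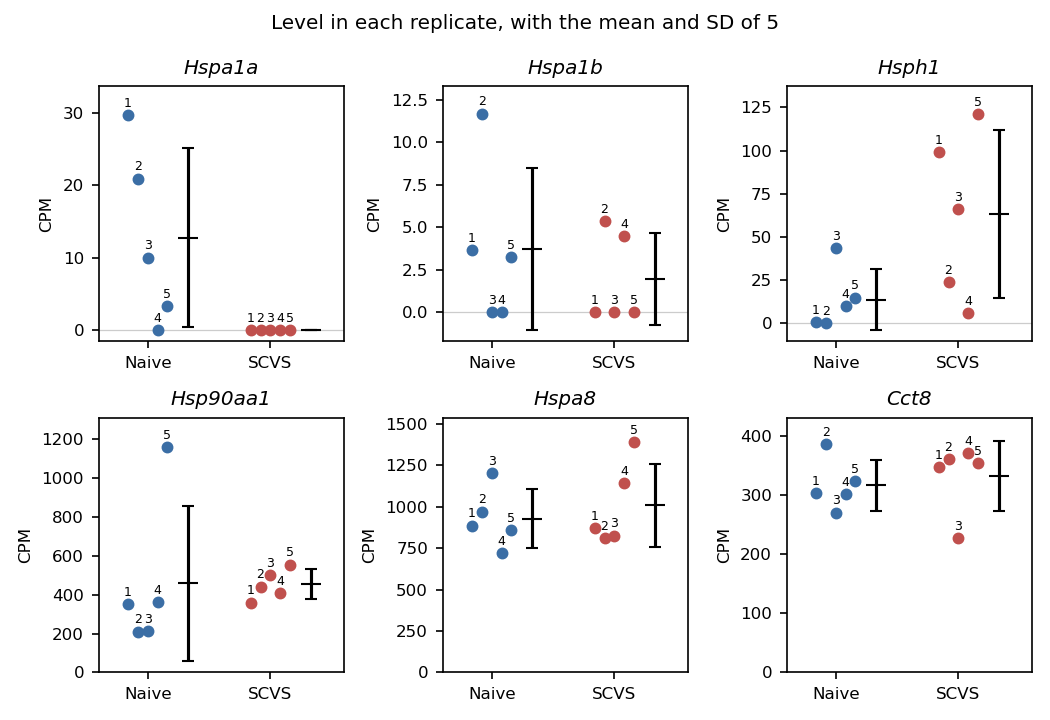
CPM of 6 members in each sample (points, numbered by replicate, naive in blue and SCVS in red), with the mean and SD of 5 samples (bars). Hspa1a is at 0 in all SCVS samples and in naive 4, Hsp90aa1 in naive 5 lies far above the rest at 1160 CPM, and the groups of Hspa8 and Cct8 overlap.

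Hsp90aa1, the stress-inducible HSP90, had close means, 459 ± 397 and 453 ± 76.9 CPM (SD, n = 5 each), that rested on a single sample. It was at 350, 210, 214, 361 and 1160 CPM in naive and 359, 442, 502, 409 and 555 CPM in SCVS samples. Without naive 5 all but 1 of the pairs of samples would be ordered the same way, naive 4 (361 CPM) lying just above SCVS 1 (359 CPM). The log2 fold change was -0.06 (SE 0.47) with all samples, 0.64 without naive 5 and 0.79 without naive 1 and naive 5, and edgeR called it in none of these fits. Hsp90b1, the HSP90 of the ER, stayed within 338 to 587 CPM in naive and 352 to 587 CPM in SCVS samples, a log2 fold change of -0.03 with an interval of -0.59 to 0.53. All 3 HSP90 genes were detected in every sample.

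Of the 12 inducible chaperones as a list, 3 were fitted higher and 9 lower (4 and 8 when scaled by total counts), with a median log2 fold change of -0.08 beside -0.03 over all tested genes. Their summed level was 1930 to 3030 CPM in naive and 2210 to 2990 CPM in SCVS samples. Hspb1, a small heat shock protein that holds unfolded protein and binds actin, was at 549, 415, 385, 235 and 54.8 CPM in naive and 514, 429, 213, 190 and 300 CPM in SCVS samples. The low value belonged to naive 5, and the log2 fold change was -0.06 (SE 0.52). Dnajb1, the DnaJ partner induced together with Hspa1a, ran from 46.7 to 165 CPM in naive and from 26.5 to 216 CPM in SCVS samples, with a log2 fold change of -0.09 (SE 0.58). Dnaja1, its relative that helps to import and refold proteins, had a log2 fold change of -0.04 (SE 0.35), and Dnajb4 one of -0.14 (SE 0.39).

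Hsf1, the factor that drives the inducible genes, was detected in every sample. It was at 45.7, 87.9, 57.0, 64.8 and 92.5 CPM in naive and 105, 101, 29.5, 37.6 and 54.2 CPM in SCVS samples. The SCVS group held both the highest and the lowest of the 10 values, and the log2 fold change was -0.16 (SE 0.46). Hsf2, a partner with roles in development, ran from 0.192 to 39.3 CPM in naive and from 0.3 to 47.2 CPM in SCVS samples, with a log2 fold change of 0.64 (SE 1.64). Hsf3, Hsf4 and Hsf5 did not pass the filter, with at most 1, 61 and 5 counts in any sample.

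Mitochondrial chaperones differed in how evenly they were measured. Hspd1 (HSP60) and Hspe1 (HSP10) form the folding ring of the matrix and are neighbours on chromosome 1 that start head to head. Hspd1 was at 54.9, 87.8, 170, 119 and 222 CPM in naive and 63.3, 109, 69.9, 208 and 44.3 CPM in SCVS samples, a log2 fold change of -0.44 (SE 0.52) that was -0.16 without naive 5. Hspe1 was steadier, at 29.3 to 69.8 CPM in naive and 35.5 to 64.1 CPM in SCVS samples, a log2 fold change of 0.19 (SE 0.47). Their RefSeq windows share 285 bases and their annotated genes overlap at the start, so that reads there cannot be told apart unless strand was used in counting, which the sources used here do not state. The start region of Hspe1 is shown because it holds 2 overlapping 3-unit elements, the longest run among the members printed, marked in capitals and beginning 89 bases before the start.
Hspe1, chr1:55087898-55088147, plus strand: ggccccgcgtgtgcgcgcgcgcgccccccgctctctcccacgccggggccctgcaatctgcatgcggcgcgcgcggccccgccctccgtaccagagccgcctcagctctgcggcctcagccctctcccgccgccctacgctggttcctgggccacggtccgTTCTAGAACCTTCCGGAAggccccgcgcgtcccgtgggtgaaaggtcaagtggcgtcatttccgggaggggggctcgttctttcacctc
Hspa9, the HSP70 of the matrix that pulls proteins through the inner membrane, was at 0.096, 235, 3.01, 97.0 and 122 CPM in naive and 12.7, 260, 82.8, 219 and 79.0 CPM in SCVS samples. Naive 1 had a single count. It was the only one of 23 tested members at 100 CPM or more on average that fell under the floor in a sample, and its log2 fold change of 0.47 had an interval from -2.27 to 3.22 and was 0.16 without naive 1. The DnaJ proteins Dnaja3, Dnajc15 and Dnajc19, which serve Hspa9 in folding and import, had naive means of 52.7 ± 24.6, 80.5 ± 61.7 and 86.6 ± 8.17 CPM and SCVS means of 50.2 ± 37.3, 50.8 ± 27.9 and 81.3 ± 37.8 CPM (SD, n = 5 each).

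ER chaperones likewise gave no call. Hspa5 (BiP), which binds nascent proteins and holds the stress sensors of the ER, was at 249, 410, 618, 458 and 246 CPM in naive and 295, 311, 358, 595 and 394 CPM in SCVS samples. The SCVS values all lay within the naive range, and the log2 fold change of -0.05 had an interval of -0.80 to 0.71. The start region of Hspa5 is shown as the template of the ER stress response element, CCAAT and CCACG 9 bases apart, which begins 65 bases before the start (in capitals). This element was found on either strand in 3 of the 8 ER chaperones with a RefSeq window, Dnajc3, Hsp90b1 and Hspa5, in 3.33% of the members' windows and in 0.119% of all windows. Every match holds the 5-base CCAAT box, found in 37.4% of all windows.
Hspa5, chr2:34771840-34772089, plus strand: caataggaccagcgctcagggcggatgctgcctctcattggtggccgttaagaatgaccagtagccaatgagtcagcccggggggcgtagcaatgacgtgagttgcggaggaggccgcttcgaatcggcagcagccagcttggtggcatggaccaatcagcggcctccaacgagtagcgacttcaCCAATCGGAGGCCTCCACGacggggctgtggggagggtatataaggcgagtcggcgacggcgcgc
Dnajc3 (p58IPK), an ER DnaJ protein that also restrains an eIF2 kinase, had the second smallest p among genes fitted higher. It was at 70.8, 146, 155, 211 and 133 CPM in naive and 322, 313, 91.4, 118 and 236 CPM in SCVS samples. SCVS 1, 2 and 5 exceeded every naive sample and the other two did not, and the log2 fold change was 0.53 with an interval of -0.37 to 1.44. Dnajb12, a DnaJ protein of the ER membrane, went the other way, at 29.8, 23.0, 38.3, 7.07 and 54.6 CPM in naive and 0.071, 21.7, 0.73, 13.0 and 0 CPM in SCVS samples. Its log2 fold change of -2.24 had an interval of -5.72 to 1.24 and did not pass the test. Among the remaining ER genes the log2 fold change was 0.69 (SE 0.60) for Dnajb11, 0.21 (SE 0.49) for Dnajb9, -0.67 (SE 0.50) for Dnajc10 and -0.38 (SE 1.19) for Hspa13. Dnajc1 had means of 21.7 ± 24.2 and 40.0 ± 30.2 CPM (SD, n = 5 each).

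None of the CCT chaperonin genes passed the test, and their spread differed from subunit to subunit. All 7 of its tested genes were detected in every sample, and the summed level was 1430 to 1590 CPM in naive and 1430 to 2040 CPM in SCVS samples. Fitted changes were higher in SCVS for 6 genes and lower for 1, Cct3, with a median of 0.15. The gene with the smallest coefficient of variation among the tested members, Cct8, was at 303, 386, 270, 301 and 323 CPM in naive and 347, 360, 227, 370 and 354 CPM in SCVS samples. Only SCVS 3 fell outside the naive range, and the log2 fold change was 0.02 with an interval of -0.51 to 0.55. The log2 fold change was 0.08 (SE 0.30) for Cct7, 0.27 (SE 0.30) for Cct4, 0.15 (SE 0.34) for Cct5, 0.25 (SE 0.35) for Cct6a, 0.56 (SE 0.52) for Cct2 and -0.14 (SE 0.39) for Cct3. Subunits of the same ring did not follow each other in SCVS 3, where Cct3 (55.5 CPM) and Cct8 (227 CPM) were at their lowest and Cct4 (334 CPM) and Cct2 (218 CPM) at their highest of all samples. Cct2, from 40.9 to 218 CPM, had a coefficient of variation of 53.6%, above the median of 44.8% for genes of its level, whereas that of Cct8 was 15.3%. Cct6b, the testis form, had 131 counts in naive 3, 1 in naive 5 and none elsewhere.

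The remaining members included genes of low and patchy level. Hspb8, a small heat shock protein of the autophagy pathway, ran from 20.4 to 178 CPM in naive and from 1.63 to 190 CPM in SCVS samples, a log2 fold change of -0.45 (SE 0.98). Hspb6, known from smooth muscle, ran from 0.0737 to 67.5 CPM and from 0.453 to 74.6 CPM, a log2 fold change of 0.09 (SE 1.30). Hspa12b, an endothelial HSP70 relative, was at 30.5, 16.4, 14.5, 16.2 and 0 CPM in naive and 84.0, 47.6, 18.2, 31.8 and 15.6 CPM in SCVS samples. Its only value of 0 was in naive 5, the sample low in Pecam1, and the log2 fold change was 1.27 (SE 1.21), or 0.95 without that sample. Hspa2, a testis-rich HSP70, had a log2 fold change of -0.36 (SE 1.52). Hspa12a and Hspa14 had naive means of 9.14 ± 8.36 and 68.7 ± 23.7 CPM and SCVS means of 14.6 ± 11.3 and 71.9 ± 28.0 CPM (SD, n = 5 each). Hspb11 and Hspb2 had naive means of 18.2 ± 17.3 and 3.22 ± 3.48 CPM and SCVS means of 14.4 ± 10.1 and 1.56 ± 3.49 CPM, while Hspb7 and Hspb9 did not pass the filter.

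Among the DnaJ proteins of the cytosol and nucleus, Dnajb2, a brain-rich partner of HSP70 that leads clients to the proteasome, had the second smallest p among genes fitted lower. It was at 44.1, 25.1, 121, 38.5 and 90.6 CPM in naive and 41.9, 32.6, 23.9, 43.1 and 43.4 CPM in SCVS samples. Naive 3 and naive 5 alone lay well above the SCVS range, and the log2 fold change of -0.84 had an interval of -2.06 to 0.38. Dnajc11, a mitochondrial DnaJ protein that associates with the complex shaping the cristae, was at 4.03, 0.157, 4.58, 13.0 and 44.0 CPM in naive and 42.9, 66.5, 2.84, 56.9 and 26.3 CPM in SCVS samples. The groups overlapped, and the log2 fold change of 1.49 had an interval of -1.20 to 4.18 and was 2.79 without naive 5, the highest naive sample. Over the 28 DnaJ C genes 24 were tested, 13 fitted higher and 11 lower, and over the 13 DnaJ B genes 10 were tested, 5 higher and 5 lower, with 0 called in edgeR.

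**Figure D3:**
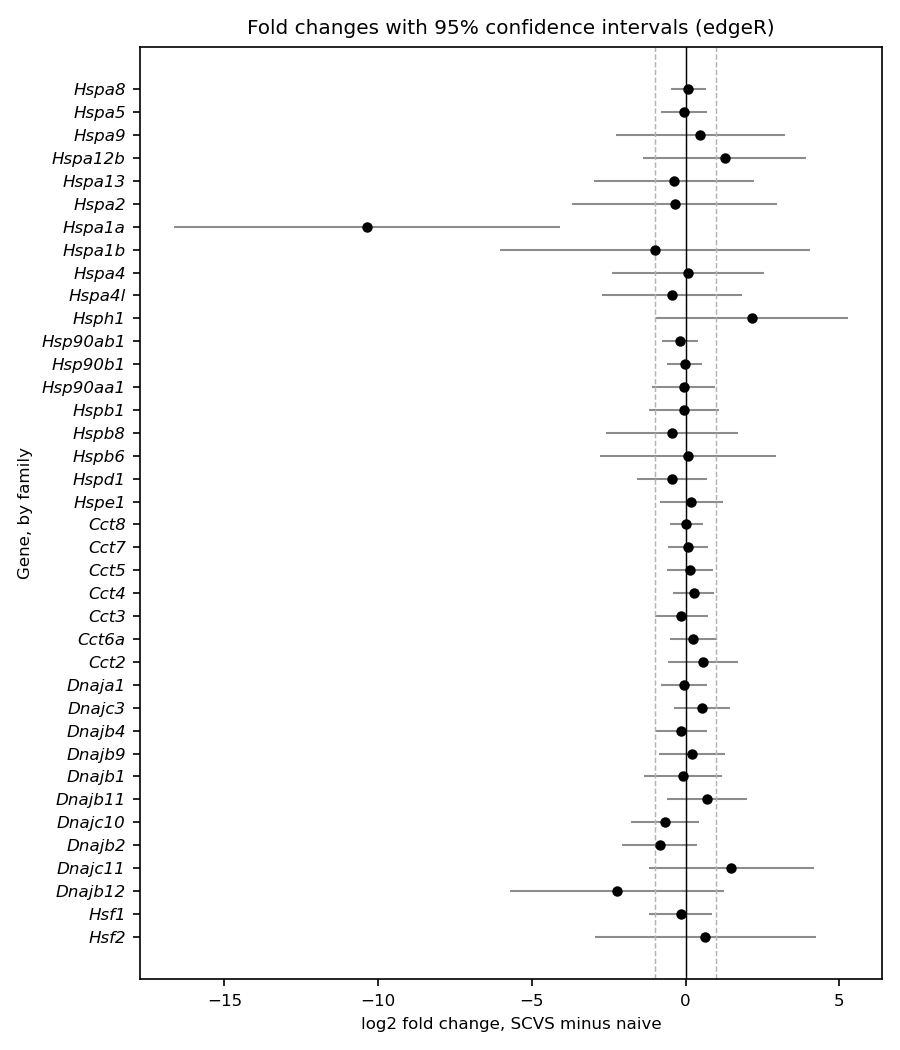
Log2 fold change (SCVS minus naive, horizontal axis) of 38 members by family, with 95% confidence intervals from edgeR's quasi-likelihood fit and dashed lines at -1 and 1. Every interval but that of Hspa1a includes 0, and the place of Hspa1a depends on the prior count because its SCVS counts are all 0.

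How closely the data bound a difference followed the level of the gene. Of the 71 tested genes 70 had a 95% interval that included 0, and 14 had an interval wholly within -1 to 1. The median absolute log2 fold change was 0.38 and 55 genes (77.5%) were under 1, beside 0.58 and 68.4% over all tested genes. The members were also more abundant, with a median mean level of 51.5 CPM against 21.0 CPM, and 56.3% of them against 38.1% were detected in every sample. At 100 CPM or more the 23 members had a median coefficient of variation over all 10 samples of 30.9%, against 43.3% for the 1966 genes at that level. Compared with genes of like level, 14 of these 23 lay below the median coefficient of variation and 12 below the lower quartile. Over all levels, 42 of 71 lay below the median and 24 of 71 below the lower quartile, and below 100 CPM 12 of 48 lay below the lower quartile. Below 100 CPM, 30 of 48 were under the floor in some sample. Apart from Hspa1a in DESeq2, no difference in these patchy genes passed edgeR, DESeq2 or limma with all samples, which does not show that a difference is absent.

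**Figure D4:**
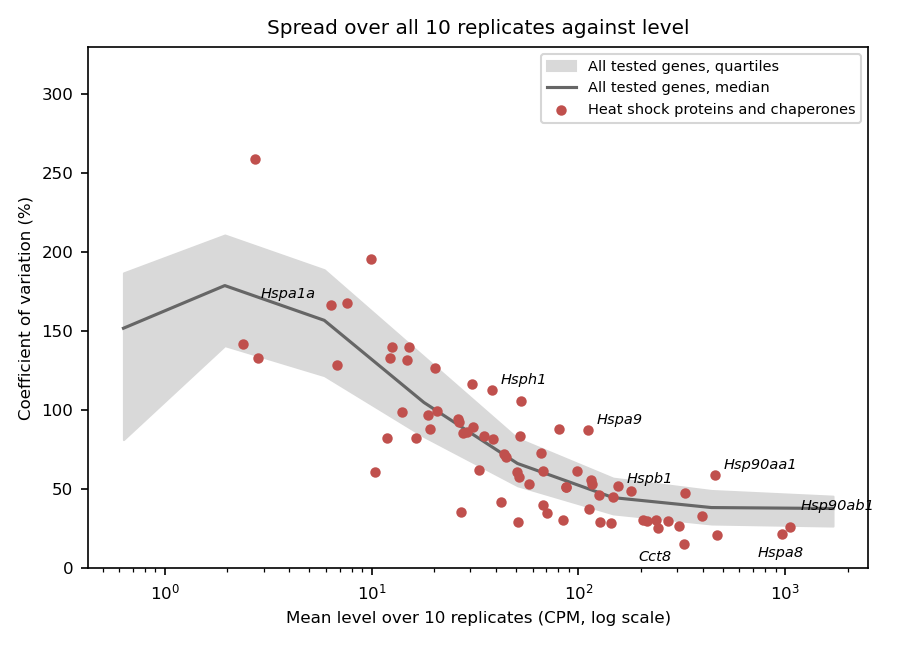
Coefficient of variation over all 10 samples (percent) against mean level (CPM, log scale) of the 71 tested members (points), with the median and quartiles of all tested genes in bins of level (line and band). Spread falls with level, and abundant members such as Cct8, Hspa8 and Hsp90b1 lie in the lower part of the band or under it while Hsp90aa1 and Hspa9 lie above it.

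No relation between partners across samples passed its test. Over all 10 samples 4 pairs were compared on log2(CPM + 1), with two-sided permutation tests and Benjamini-Hochberg adjustment over the 4. Hspd1 and Hspe1 gave a Pearson r of -0.35 (permutation p = 0.308, adjusted 0.503) and a Spearman rho of -0.16 (permutation p = 0.657, adjusted 0.657), and r was -0.76 without the 2 samples farthest from the median of Hspd1. Hspa1a and Hspa1b gave r = 0.45 (permutation p = 0.175, adjusted 0.503) and rho = 0.36 (permutation p = 0.304, adjusted 0.608), and r = -0.05 without the 2 farthest samples. For Hsp90aa1 and Hsph1 r was 0.31 (permutation p = 0.387, adjusted 0.503) and rho 0.47 (permutation p = 0.179, adjusted 0.608), with r = 0.21 without the 2 farthest. For Hspa5 and Hsp90b1 r was -0.23 (permutation p = 0.503, adjusted 0.503) and rho -0.25 (permutation p = 0.491, adjusted 0.655), with r = -0.13 without the 2 farthest. With 5 samples a group no within-group value was computed.

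Genes that work with the members but do not match the rule were counted by list. The list of HSP90 co-chaperones, most of which load clients onto HSP90 or tune its ATP cycle but which also holds Trap1, the mitochondrial HSP90 itself, and Tcp1, a CCT subunit, had 9 of 15 fitted higher and 6 lower. The BAG proteins and other exchange factors of HSP70 had 4 of 10 higher and 6 lower (5 and 5 when scaled by total counts), and prefoldin, which hands actin and tubulin to CCT, 2 of 6 higher and 4 lower (3 and 3). Genes of the ER unfolded protein response had 8 of 15 higher and 7 lower (10 and 5 when scaled by total counts). All 7 mitochondrial proteases and unfoldases were fitted lower (6 of 7 when scaled by total counts), with a median log2 fold change of -0.57. In none of these lists did edgeR or DESeq2 call a gene, none had an unadjusted p under 0.05, and no gene had groups that did not overlap.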

How the data were processed

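The deposited table holds raw read counts per gene for 10 samples. Per the labels and the study's methods, the authors amplified the RNA with the Discover-sc WTA kit, sequenced paired 150-base reads, trimmed and aligned them and counted reads per gene. The submitters' processing notes name cutadapt 1.9.1, HISAT2 2.0.1, HTSeq 0.6.1, DESeq2 and the build GRCm38, whereas the methods name mm9. Of the table's identifiers 58.8% occur in the mm9 annotation used here (GENCODE M1). Whether strand was used is not stated. Groups are those of the labels, and replicates are pools.

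Members and gene lists were chosen with earlier results of these data known. Genes were kept where at least 3 samples had more than 5 counts, scaled by TMM and tested with edgeR 4.0.16 (glmQLFit and glmQLFTest, R 4.3.3), with Benjamini-Hochberg adjustment over all tested genes and a threshold of 0.1. The study's own tool, DESeq2 (here 1.42.0), and limma 3.58.1 were alternatives. The scripts were tested on simulated data, where recovery of changes was required only at a low spread between samples. The real spread was wide (edgeR's common biological coefficient of variation was 1.59). That requirement therefore does not show that edgeR could call a change in these samples. SE is the absolute log2 fold change divided by the square root of F. CPM is counts over the sample total. Level per kilobase uses exon length from GENCODE M1. Coordinates and promoters are RefSeq's (GRCm38.p6). Named genes were the members of the lists, those called by edgeR or DESeq2 and, for each direction, the 3 with the lowest p. Permutation tests of relations drew 100000 resamples, those of single genes were exact. The floor of 3 counts covers counting error only, since amplified reads without molecular identifiers are not independent molecules.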

Additional observations from a re-analysis of the deposited data

Results flagged for a closer look

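In each group of 5 samples the gap between the most extreme sample and its neighbour was set against the group's range, on log2(CPM + 1), for the 38 genes whose fold changes are given. Of 76 groups 4 had a sample far from the others, where chance flags about 1 group in 20. The SCVS group of Hspa1a, at 0 in every sample, had no range and could not be flagged. In SCVS 3 the level of Cct3 was 55.5 CPM against 200 to 263 CPM in the other SCVS samples, that of Cct8 was 227 CPM against 347 to 370 CPM, and that of Hspa13 was 0 CPM against 19.3 to 57.8 CPM. In naive 5 the level of Hspa12b was 0 CPM against 14.5 to 30.5 CPM in the other naive samples.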

How the results depend on the processing

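edgeR called 0 genes and 0 members under every edgeR alternative and without any replicate, while DESeq2 called 114 genes (1 member, Hspa1a), DESeq2 without Cook's and independent filtering 123 genes (1 member) and limma 3 genes (0 members). Without each replicate in turn, DESeq2 called 98 to 214 genes and 0 to 2 members, and its adjusted p for Hspa1a ran from 2.54e-05 (without naive 4) to 0.178 (without naive 1, the only single replicate whose removal ended the call). Without naive 5, DESeq2 also called Dnajc6 (log2 fold change 7.88). Leaving out both naive 1 and naive 5 was an alternative chosen after seeing the data. So were the DESeq2 fits without a replicate and the sum of Hspa1a and Hspa1b. Without naive 1 and naive 5, Hspa1a no longer passed the count filter, and DESeq2 called 235 genes and 2 members, Dnajc6 (7.50) and Dnajc21 (3.95). Dnajc6 had counts of 0, 1, 2, 0 and 152 in naive and 0, 106, 9, 191 and 402 in SCVS samples. Dnajc21 had 576, 2, 19, 73 and 344 in naive and 557, 350, 919, 150 and 208 in SCVS samples. The highest naive counts of both genes were thus in samples left out. With all samples DESeq2 called neither gene, at log2 fold changes of 2.34 and 0.88. The cause was not tested.

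The median log2 fold change of the members stayed within its spread between samples in every alternative (-0.05 to 0.04 without each replicate). Of 759 fold changes of 38 genes under alternatives, 687 kept their direction and their side of the threshold, 70 reversed in sign and 2, both Hspa1a in DESeq2 at -9.79, passed the threshold. With limma the sign reversed for Hspa4 (-1.94), Hspa4l (1.33), Hsp90aa1 (0.45), Hsp90b1 (0.01), Hspb1 (0.06), Dnajb4 (0.05) and Dnajb9 (-0.12), and with total counts for Hsp90b1 (0.02) and Hspb1 (0.01). Without naive 1 and naive 5 it reversed in edgeR and DESeq2 for Hspa4l (1.04 and 1.10), Hsp90aa1 (0.79 and 0.82), Hsp90ab1 (0.05 and 0.07) and Dnajb4 (0.25 and 0.28), in edgeR for Dnajb9 (-0.02) and in DESeq2 for Hsp90b1 (0.02). The relation of Hspa1a and Hspa1b went to r = -0.05 without the 2 farthest samples.

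Without each replicate in turn, the sign reversed within these ranges: Cct3 -0.25 to 0.10, Cct7 -0.04 to 0.25, Cct8 -0.04 to 0.12, Dnaja1 -0.16 to 0.11, Dnajb1 -0.62 to 0.14, Dnajb4 -0.35 to 0.06, Dnajb9 -0.02 to 0.42, Hsf1 -0.39 to 0.02, Hsf2 -0.50 to 2.53, Hsp90aa1 -0.25 to 0.64, Hsp90b1 -0.11 to 0.08, Hspa1b -1.70 to 0.05, Hspa2 -0.80 to 0.29, Hspa4 -0.14 to 0.40, Hspa4l -0.92 to 0.11, Hspa5 -0.26 to 0.18, Hspa8 -0.07 to 0.20, Hspb1 -0.33 to 0.24, Hspb6 -0.60 to 0.78. For other genes the sign held but the size moved by over 1.5 times: Cct2 0.32 to 0.86, Cct4 0.14 to 0.39, Cct5 0.01 to 0.37, Cct6a 0.07 to 0.40, Dnajb11 0.40 to 1.01, Dnajb2 -1.05 to -0.47, Dnajc10 -1.05 to -0.49, Dnajc11 1.17 to 2.79, Dnajc3 0.35 to 0.72, Hsp90ab1 -0.33 to -0.07, Hspa12b 0.79 to 1.71, Hspa13 -0.68 to -0.05, Hspa9 0.15 to 1.18, Hspb8 -1.12 to -0.07, Hspd1 -0.95 to -0.16, Hspe1 0.06 to 0.40, Hsph1 1.77 to 3.33. Leaving out naive 1 and naive 5 together gave 1.12 for Cct2, 0.63 for Cct6a, 0.61 for Hspe1 and 0.97 for Hspb6.

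The groups share replicate numbers, but nothing states that a number marks a pair. Same-numbered samples deviated together with correlations of -0.0089 to 0.133, and 4 of 5 naive samples correlated best with their own number. With the replicate block edgeR called 0 genes and 0 members, and the sign reversed for Hspa4 (-0.43), Hspa4l (0.26), Hsp90aa1 (0.25) and Hspb1 (0.13). Some genes kept their sign but moved far in size with the block: Dnajb12 from -2.24 to -5.17, Hspa1b from -1.01 to -2.84, Hsph1 from 2.17 to 3.49 and Hspa9 from 0.47 to 2.01. With limma Hsph1 was at 4.13 and Dnajb12 at -4.06. Scaling by total counts moved the split of the members from 35 higher and 36 lower to 37 and 34. With 9984743 counts or more in every sample, 30 of 48 tested members below 100 CPM were still under the floor of 3 counts in some sample.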
